A study of Homo sapiens with 20 samples.

Results

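The unfolded protein response of the endoplasmic reticulum (ER) was followed through 10 genes taken from the count table by symbol: the sensors ERN1, ATF6 and EIF2AK3, the transcription factor XBP1, and the targets HSPA5, HSP90B1, PDIA4, DNAJB9, SDF2L1 and HERPUD1. The rows were picked by gene name, but the members and lists were chosen with earlier results of these data known. All 10 of the 10 symbols were found among the 60656 rows of the table, and all 10 were among the 24790 rows that passed the filter on low counts. Another 129 genes of the same pathway, in 6 lists, are given as counts with named examples.

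The response matches the folding capacity of the ER to the load of secreted and membrane proteins. The kinase and RNase IRE1 (ERN1) splices XBP1 mRNA, ATF6 is cut in the Golgi to free a transcription factor, and PERK (EIF2AK3) phosphorylates a translation initiation factor. XBP1 and ATF6 then raise chaperones, disulfide isomerases and parts of ER-associated degradation, the pathway that returns misfolded proteins to the cytosol. The pancreas is a secretory organ, and its exocrine cells depend on this response.

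RNA was sequenced from 20 samples of SW1990, an established human line of pancreatic cancer, used in a mouse model according to the series title. The labels give 4 treatments of 5 samples each, and no sample is labelled untreated. By their labels, 5 were treated by clearing Heat and removing Dampness (called heat-clearing), 5 by strengthening spleen and regulating qi-flowing (spleen-strengthening), 5 by eliminating heat by nourishing yin (yin-nourishing) and 5 by activating blood and removing stasis (blood-activating). The sources used here give no herbs, dose or duration and do not say whether replicates are separate mice, so p-values measure only the spread between these samples.

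Each library held 81.7 to 135 M counts (M, mega). All 10 markers of ductal carcinoma epithelium had a median of 1 CPM (count per M counts) or more, with a sum of 4312 to 6875 CPM per library. The small nuclear RNA RN7SK took over 4% of the counts in 5 libraries, heat-clearing 1 and 2 and blood-activating 1, 8 and 9, which are called RN7SK-high here. Each title also ends in a letter, b in 13 libraries and C in 7, that the labels do not explain. The letter C libraries are heat-clearing 2, 7 and 9, spleen-strengthening 7, yin-nourishing 5, and blood-activating 4 and 6. Digestive enzymes of pancreatic acinar cells, which are rich in ER, summed to 7.34 to 1067 CPM per library over 20 markers, with group medians of 19.7 (heat-clearing), 10.2 (spleen-strengthening), 11.2 (yin-nourishing) and 81.9 CPM (blood-activating). Of the 20 markers 8 had a median of 1 CPM or more. The highest median was that of PRSS3, 7.61 CPM, which had at least 3.525 CPM in every library, so low sums rest largely on this gene. The plasma cell markers, another ER-rich type, summed to 0.43 to 12.2 CPM. Among them CD79A had the highest median, 3.175 CPM, and the next was MZB1 at 0.29 CPM, so the sum rests largely on 1 gene. In bulk RNA, fewer cells of a type and less RNA per cell cannot be told apart.

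Per exon length, the chaperones and XBP1 stood far above the sensors. HSP90B1, the ER member of the HSP90 family (GRP94), led with 104.9 ± 11.2 CPM per kilobase of exon (mean ± SD over the 20 libraries). XBP1 followed at 69.9 ± 13.9, PDIA4, a disulfide isomerase, at 51.8 ± 7.89, and HSPA5, the ER HSP70 known as BiP or GRP78, at 47.9 ± 8.33 CPM per kilobase. These 4 abundant genes formed an upper tier.

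A lower tier held DNAJB9, a J-domain partner of HSPA5, at 12.03 CPM per kilobase, ATF6 at 11.6, EIF2AK3 at 10.4 and HERPUD1, a membrane component of ER-associated degradation, at 8.04. SDF2L1, which assists HSPA5 in substrate folding, had 3.02 ± 1.10 and ERN1 1.77 ± 0.209 CPM per kilobase. In the ranked order only 2 steps separated neighbours without overlap over the 20 libraries, from HSPA5 to DNAJB9 and from HERPUD1 to SDF2L1. The order of the other neighbours was less fixed: HSP90B1 was above XBP1 in 20 of 20 libraries although their ranges overlapped, PDIA4 above HSPA5 in 15, and DNAJB9 above ATF6 in 11. Gene counts do not show the splicing of XBP1 mRNA, so they give its total level only.

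**Figure D1:**
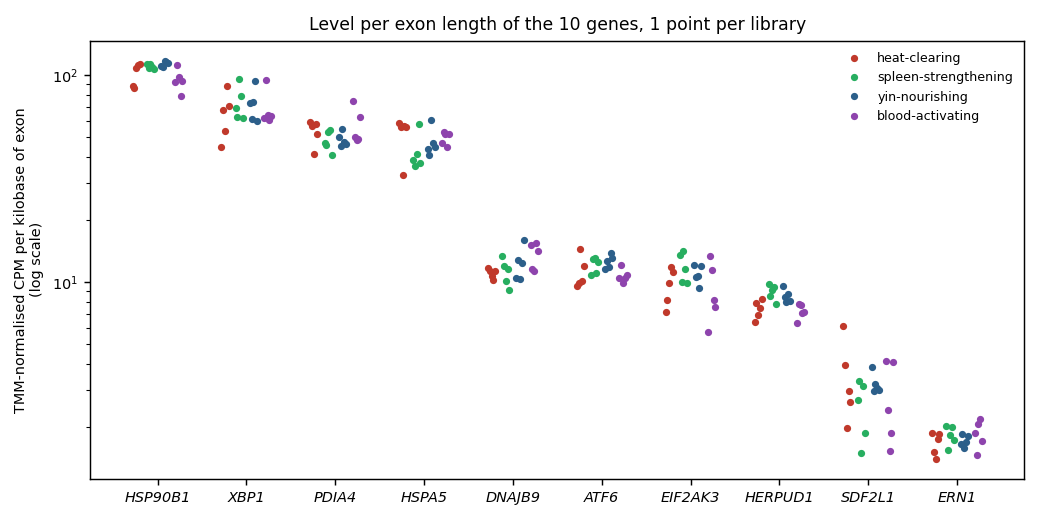
Level of each gene as TMM-normalised CPM per kilobase of exon (log axis), 1 point per library, coloured by treatment. HSP90B1, XBP1, PDIA4 and HSPA5 form the upper tier, and SDF2L1 and ERN1 lie lowest, at means of 3.02 and 1.77 CPM per kilobase.

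The spread between libraries also differed by gene. HSP90B1 varied least, with a coefficient of variation of 10.7% and a highest library 1.49 times the lowest. SDF2L1 varied most, at 36.4% and 4.10 times, followed by EIF2AK3 at 21.3% and XBP1 at 19.9%. For comparison, the median coefficient of variation of the 8760 rows with a mean of at least 10 CPM was 18.1%. All members but SDF2L1, at 3.32 CPM, have a mean above that level.

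The promoter windows of 5 members held the letters of an ER stress response element, a kind of sequence that ATF6 and XBP1 are known to act through. RefSeq windows of 300 bases (250 before to 50 after the start, GRCh38.p14) were matched for 10 of the 10 members. The element ERSE was searched as CCAAT and CCACG with 9 bases of any kind between them, on both strands, and lay in 27 of 35116 promoters (0.0769%), among them those of HSPA5, XBP1 and HSP90B1, the last with 2 copies. The element ERSE-II, searched as ATTGG and CCACG with 1 base of any kind between them, on both strands, lay in 19 promoters (0.0541%), including HERPUD1 and SDF2L1. The windows below run 5′ to 3′ on the gene's strand with the fixed letters of the element in capitals, and they are shown because the results on HSPA5 and HERPUD1 concern genes with one such element of each kind. Positions count from the RefSeq start of the window, with negative numbers upstream. This start differs from the first base of the gene in GENCODE 29, and lies 13 bases outside the gene for HSPA5 but 28 bases inside it for XBP1, 41 for SDF2L1, 94 for HERPUD1 and 303 for HSP90B1. The HSP90B1 windows are not printed, because both lie wholly inside the gene as annotated in GENCODE 29. The printed windows of XBP1 and HERPUD1 run partly into their genes, and those of HSPA5 and SDF2L1 do not.
HSPA5 ERSE, chr9:125241371-125241429, minus strand, element at -66 to -48: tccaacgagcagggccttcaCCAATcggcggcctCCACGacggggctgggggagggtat
XBP1 ERSE, chr22:28800583-28800641, minus strand, element at -52 to -34: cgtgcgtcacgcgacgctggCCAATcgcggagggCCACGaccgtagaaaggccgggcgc
HERPUD1 ERSE-II, chr16:56932005-56932055, plus strand, element at -117 to -107: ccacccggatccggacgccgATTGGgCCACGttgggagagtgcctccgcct
SDF2L1 ERSE-II in reverse, chr22:21642094-21642144, plus strand, element at -188 to -178: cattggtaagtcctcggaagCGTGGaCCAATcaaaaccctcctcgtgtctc
In the other lists, ERSE was found before CALR, CANX, CRELD2, ERO1B and PDIA6, and ERSE-II before HYOU1. Also searched was the unfolded protein response element TGACGTGG, which lay in 256 promoters (0.729%) and in none of the 10 members' windows. It lay in 11 of the 109 other pathway genes with a window, DNAJC10, HYOU1, KDELR3, SEC16A, SEC62, SSR3, SSR4, TXNDC11, TXNDC5, UBE2J1 and VCP. A match describes the letters of a window and not a site in use.
The 250 bases before the RefSeq start of HSPA5, the member described most fully, are given whole on the minus strand, with the ERSE letters in capitals.
HSPA5, chr9:125241344-125241593, 62% G and C: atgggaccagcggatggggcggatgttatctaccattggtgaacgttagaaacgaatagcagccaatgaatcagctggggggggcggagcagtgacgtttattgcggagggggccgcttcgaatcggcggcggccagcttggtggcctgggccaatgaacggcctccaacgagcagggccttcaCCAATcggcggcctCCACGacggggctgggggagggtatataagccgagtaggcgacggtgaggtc

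Between treatments no member passed the test. In edgeR's test of any difference among the 4 treatments, 0 of 10 members had an adjusted p under 0.05, and 0% of all rows did. At an unadjusted p under 0.05 the count was 1 of 10 members, against 15.4% of all rows. The member was HERPUD1 (adjusted p = 0.204), and the next was HSP90B1 (adjusted p = 0.378). Over the 6 pairs of treatments, 0 of the 60 differences between group levels passed after adjustment, and the smallest adjusted p was 0.102. DESeq2 called HERPUD1 in the 4-group test (adjusted p = 0.0315), where 8.4% of the rows it gave an adjusted p passed.

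**Figure D2:**
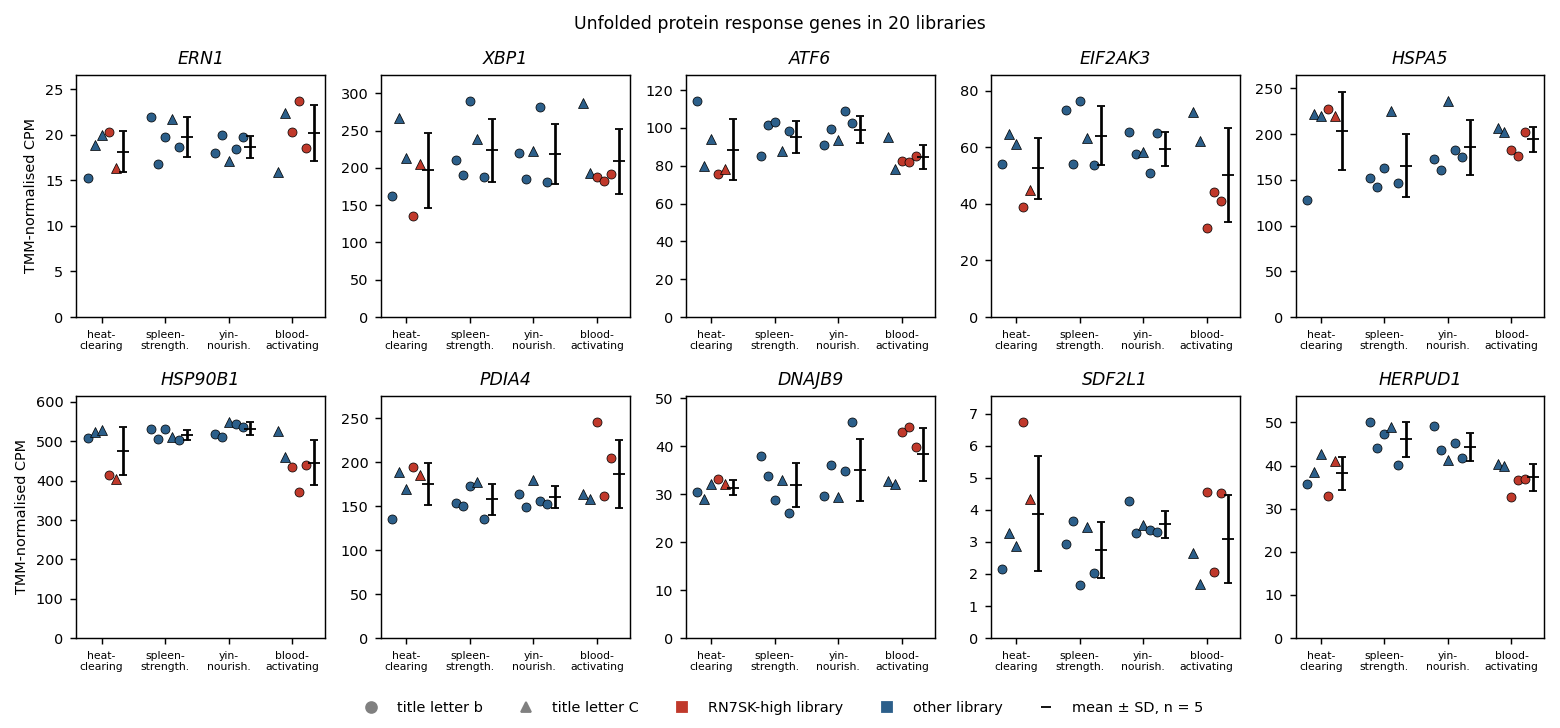
TMM-normalised CPM of each gene in each library, by treatment, with the mean ± SD (n = 5) to the right of the points. Triangles mark title letter C and red marks the RN7SK-high libraries; the treatments overlap for most genes, while HSPA5 is high in the triangles and EIF2AK3 and HSP90B1 are low in the red points.

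HERPUD1 came nearest to a difference between treatments. Its level in spleen-strengthening replicates 2, 5, 6, 7 and 8 was 50.2, 44.0, 47.2, 48.85 and 40.2 CPM, and in yin-nourishing replicates 1, 4, 5, 7 and 10 it was 49.2, 43.6, 41.3, 45.3 and 41.7 CPM. In heat-clearing replicates 1, 2, 3, 7 and 9 the level was 33.0, 41.0, 35.8, 38.6 and 42.6 CPM, and in blood-activating replicates 1, 4, 6, 8 and 9 it was 32.65, 40.4, 40, 36.6 and 37.0 CPM. The former pair of groups thus stood mostly above the latter pair, and the yin-nourishing and blood-activating ranges did not overlap. Among all rows, 4.12% had no overlap in that pair. In the other 5 pairs 0 of 10 members had groups without overlap, against 1.26% of all rows for heat-clearing and spleen-strengthening, 1.16% for heat-clearing and yin-nourishing, 0.488% for heat-clearing and blood-activating, 0.77% for spleen-strengthening and yin-nourishing, and 4.44% for spleen-strengthening and blood-activating.

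The spleen-strengthening level of HERPUD1 was 1.24-fold the blood-activating level (95% interval 1.07 to 1.43, edgeR adjusted p = 0.102). Against heat-clearing, the log2 difference of heat-clearing minus spleen-strengthening was -0.27 (SE 0.10, adjusted p = 0.327). The yin-nourishing level was 1.19-fold the blood-activating level (95% interval 1.03 to 1.37, adjusted p = 0.191). Under 2 other tools HERPUD1 passed in the spleen-strengthening and blood-activating pair, with an adjusted p of 0.0239 by DESeq2 (13% of all rows passed) and 0.0282 by limma voom (19.7%). Without the 5 RN7SK-high libraries its difference there was 0.21 on the log2 scale (adjusted p = 0.843), and in the yin-nourishing and blood-activating pair 0.14 (adjusted p = 0.969).

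**Figure D3:**
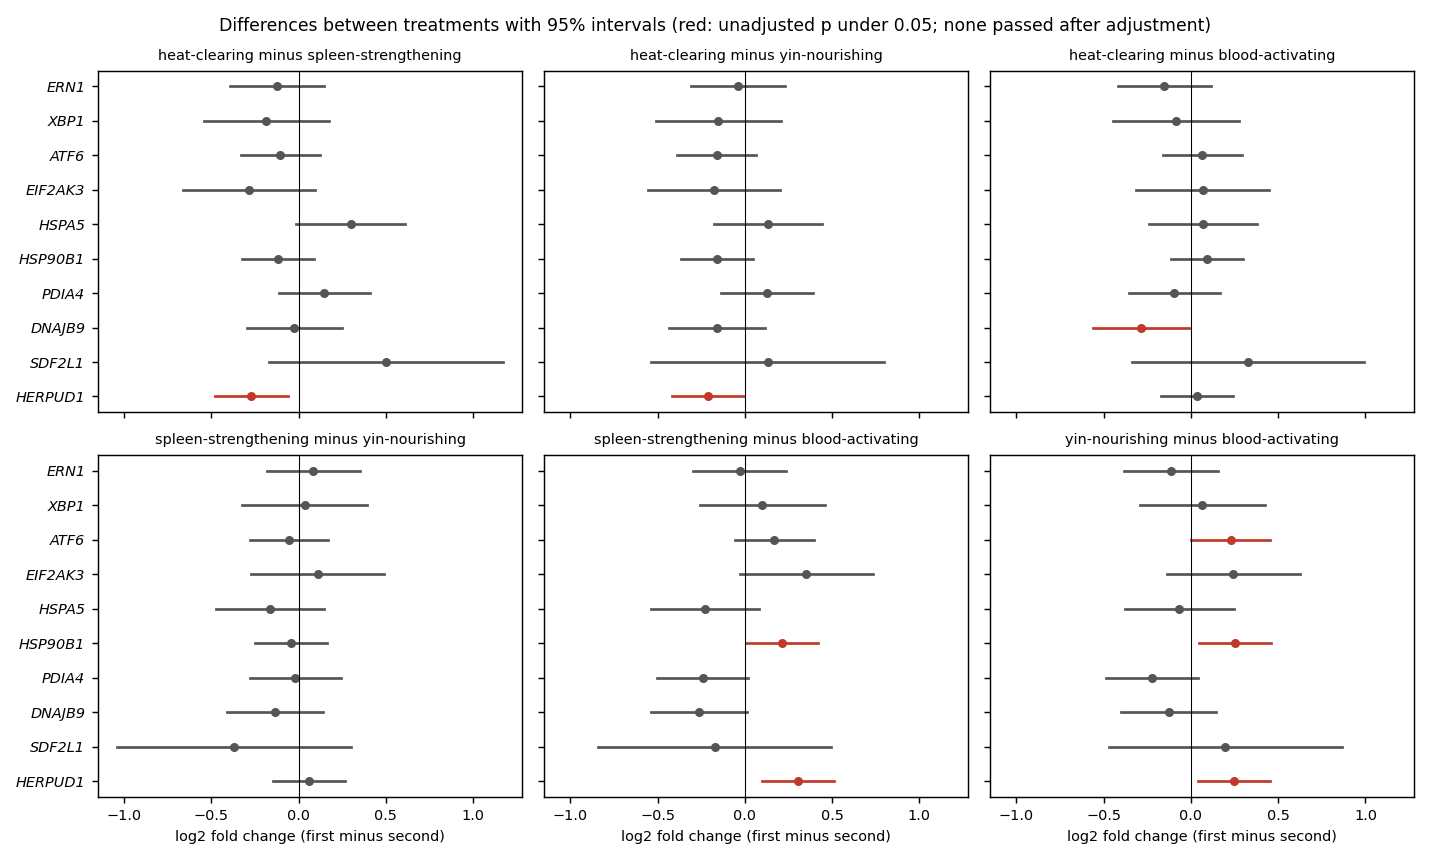
Log2 fold change of each gene in each of the 6 pairs of treatments (first minus second), with 95% intervals from the edgeR fit on all 20 libraries. Red marks an unadjusted p under 0.05, which 8 of the 60 differences had; none passed after adjustment.

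By pair, 0 to 3 of the 10 members had an unadjusted p under 0.05. Heat-clearing against spleen-strengthening gave 1 of 10 (HERPUD1), where 11.5% of all rows reached it and 0.00807% passed after adjustment. Heat-clearing against yin-nourishing also gave 1 of 10 (HERPUD1, background 10.3%). Heat-clearing against blood-activating gave 1 of 10, DNAJB9, at -0.29 on the log2 scale (SE 0.132, adjusted p = 1, background 1.86%). Spleen-strengthening against yin-nourishing gave 0 of 10 (background 4.72%).

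The spleen-strengthening and yin-nourishing groups differed from the blood-activating group in 2 and 3 members before adjustment, near the share of all rows. Spleen-strengthening minus blood-activating had 2 of 10 members at an unadjusted p under 0.05, HERPUD1 and HSP90B1, where 20.5% of all rows reached it. Yin-nourishing minus blood-activating had 3 of 10, HERPUD1, HSP90B1 and ATF6, where the background was 18.2%. In the latter pair the log2 difference was 0.25 for HSP90B1 (SE 0.0996, adjusted p = 0.18) and 0.23 for ATF6 (SE 0.109, adjusted p = 0.268). These comparisons share the blood-activating libraries, 3 of which are RN7SK-high. By limma voom 4 members passed in the former pair (HERPUD1, HSP90B1, EIF2AK3 and, lower, DNAJB9) and 3 in the latter (HERPUD1, HSP90B1 and EIF2AK3), where 19.7% and 16.9% of all rows passed by that tool. DESeq2 called 1 of 10 in the former pair, HERPUD1, and 0 of 10 in the latter, where it called 13% and 7.19% of all rows. Without the RN7SK-high libraries 0 members had an unadjusted p under 0.05 in either pair by edgeR, where 6.57% and 5.99% of all rows did.

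The intervals of the fit on all 20 libraries describe the spread between these samples. Each is taken alone and not adjusted for the 60 differences. Leaving out SDF2L1, the 95% intervals of all 6 pairs stayed within a 1.66-fold difference in either direction, and the largest estimate was 0.35 on the log2 scale (EIF2AK3, spleen-strengthening minus blood-activating, adjusted p = 0.287). SDF2L1, the least abundant of the targets per library, allowed up to 2.24-fold. HSPA5 had means of 203.5 ± 42.4 (heat-clearing), 165.7 ± 34.4 (spleen-strengthening), 185.5 ± 29.7 (yin-nourishing) and 194 ± 14.1 CPM (blood-activating; SD, n = 5 each). Its largest difference was 1.23-fold between heat-clearing and spleen-strengthening (95% interval 0.991 to 1.52, edgeR adjusted p = 0.46). With the title letter as a term this difference fell from 0.30 to 0.17 on the log2 scale (adjusted p = 0.59).

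EIF2AK3, HSP90B1 and DNAJB9 were split between RN7SK-high and other libraries in both treatments that held both kinds. This is near the share of all rows, which is given below. EIF2AK3 had 38.8 and 44.7 CPM in the RN7SK-high heat-clearing libraries 1 and 2, and 53.9, 64.5 and 61.0 CPM in heat-clearing 3, 7 and 9. In the blood-activating group it had 31.3, 44.3 and 40.95 CPM in RN7SK-high replicates 1, 8 and 9, and 72.35 and 62.1 CPM in replicates 4 and 6. The RN7SK-high libraries were wholly lower in both groups, at 0.698 and 0.578 times the mean of the others. In spleen-strengthening the gene had 53.6 to 76.5 CPM and in yin-nourishing 50.9 to 65.4 CPM, ranges that overlap those of the other libraries of the heat-clearing and blood-activating groups.

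HSP90B1 showed the same split. It had 413 and 404 CPM in the RN7SK-high heat-clearing libraries and 509, 524 and 528 CPM in the other 3, and 434, 370.1 and 440.1 CPM against 526 and 459.9 CPM in the blood-activating group. DNAJB9 was split the other way, with 33.1 and 32.1 CPM against 30.3, 29.1 and 32.07 CPM in heat-clearing, where the margin was narrow, and 42.9, 43.9 and 39.8 against 32.7 and 32.15 CPM in blood-activating. Of the 10 members, 2 were wholly lower in both groups, where 10% of all rows were, and 1 was wholly higher, where 12.3% were. The part of RN7SK in the treatment differences of these genes was not tested beyond the fits without these libraries. There the spleen-strengthening minus blood-activating difference of EIF2AK3 went from 0.35 to -0.06 and that of HSP90B1 from 0.21 to 0.07 on the log2 scale.

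The remaining members did not split this way in both groups. SDF2L1 was higher in the RN7SK-high heat-clearing libraries (6.75 and 4.35 CPM) than in the others (2.17, 3.27 and 2.88 CPM), but in blood-activating 4.57, 2.05 and 4.54 CPM overlapped 2.65 and 1.68 CPM. XBP1 had 182.6 to 192 CPM in the RN7SK-high blood-activating libraries and 194 and 287 CPM in the others, while in heat-clearing 136 and 205 overlapped 162 to 266.5 CPM. ERN1, between 15.2 and 23.8 CPM in all 20 libraries, overlapped in both.

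HSPA5 varied most clearly with the letter that ends the titles. In heat-clearing replicates 1, 2, 3, 7 and 9 its level was 228, 219.7, 128, 222 and 219.9 CPM, and in spleen-strengthening replicates 2, 5, 6, 7 and 8 it was 152, 142, 163, 226 and 146 CPM. In yin-nourishing replicates 1, 4, 5, 7 and 10 it was 172, 161, 237, 182.5 and 175 CPM, and in blood-activating replicates 1, 4, 6, 8 and 9 it was 182.5, 207, 203, 176 and 203 CPM. The 7 letter C libraries lay within 203 to 237 CPM, and the 13 letter b libraries ranged from 128 to 228 CPM with a median of 172 CPM. The highest letter b library, heat-clearing 1, is RN7SK-high.

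Within treatments the letter C libraries had 1.27-fold the HSPA5 level of the letter b libraries (95% interval 1.11 to 1.45, edgeR adjusted p = 0.329). An exact permutation of the letter within treatments, over 2500 arrangements, gave a two-sided p of 0.004 for a mean log2 difference of 0.36, with the letter C mean higher in 4 of 4 treatments. The comparison was chosen after the HSPA5 values were seen, so these p-values describe a noticed pattern. At an unadjusted p under 0.05 the letter gave 3 of 10 members, where 6.49% of all rows reached it and 0.00403% passed after adjustment. The 3 were HSPA5, XBP1 (0.33, adjusted p = 0.615) and EIF2AK3 (0.33 on the log2 scale, adjusted p = 0.675). In blood-activating all letter b libraries are RN7SK-high and no letter C library is. The letter and the RN7SK share cannot be told apart in that group. Without the RN7SK-high libraries the edgeR letter difference was 0.04 for EIF2AK3 (adjusted p = 0.954) and 0.22 on the log2 scale for XBP1 (adjusted p = 0.719). On all 20 libraries, with the summed acinar level as a term, the HSPA5 difference was 0.32 on the log2 scale (adjusted p = 0.362).

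**Figure D4:**
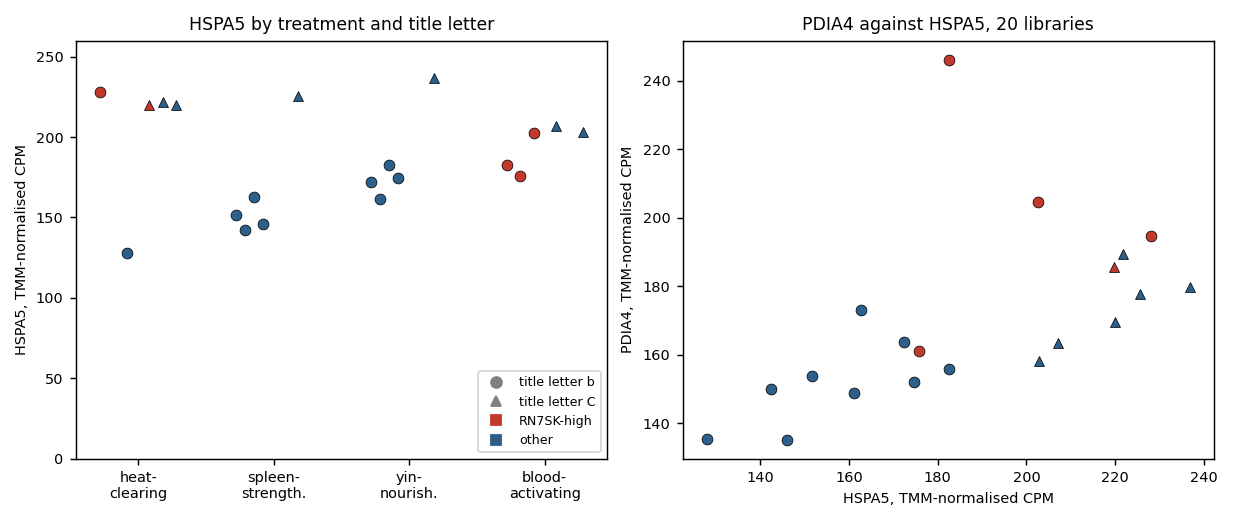
Left, HSPA5 in TMM-normalised CPM by treatment and title letter (circles b, triangles C; red RN7SK-high). Right, PDIA4 against HSPA5 in the 20 libraries, both in TMM-normalised CPM on axes that do not start at 0; the 7 letter C libraries lie at 203 CPM or more of HSPA5, and the library with the highest PDIA4, at 246 CPM, is RN7SK-high.

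Among the 15 libraries without a high RN7SK share, a subset chosen after the data were seen, the letters separated fully. The subset leaves out heat-clearing 1, the letter b library at 228 CPM. The values below thus describe a noticed pattern, and on all 20 libraries the edgeR adjusted p was 0.329. The 6 letter C libraries had at least 203 CPM of HSPA5, and the 9 letter b libraries 128 to 182.5 CPM. Of all rows, 0.577% had letter C wholly higher and 0.758% wholly lower. The edgeR difference within treatments was 1.51-fold (95% interval 1.36 to 1.68, adjusted p = 0.000627), and HSPA5 had rank 3 by p among the 28334 rows tested there. It was 1 of 10 members past the threshold, where 2.5% of all rows passed. PDIA4 followed at 1.20-fold (95% interval 1.08 to 1.35, adjusted p = 0.0728), and ATF6 was lower at 0.865-fold (0.761 to 0.984, adjusted p = 0.274).

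The 15-library contrast was chosen after the data were seen, and it rests on few libraries, since the blood-activating group then has letter C only. Heat-clearing keeps 2 C and 1 b, and spleen-strengthening and yin-nourishing 1 C and 4 b each. HSPA5 passed in each of the 15 fits that left out 1 more library, at 0.52 to 0.67 on the log2 scale. The count of all rows, 709, fell to 160 without heat-clearing 3, to 467 without heat-clearing 7, to 30 without spleen-strengthening 7 and to 64 without yin-nourishing 5. With all 20 libraries and a term for the RN7SK-high ones HSPA5 differed by 0.48 on the log2 scale (adjusted p = 0.0234). That term was also chosen after the data were seen. The letter and any other property that the labels do not give cannot be told apart.

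Genes of 4 other lists also passed in the 15 libraries, and none of them passed over all 20 by edgeR. Of the 33 other chaperones and folding enzymes 5 rose in letter C libraries and 1 fell. The 5 were HYOU1, a nucleotide exchange factor for HSPA5 (1.55-fold, adjusted p = 0.00451), the lectin chaperone CALR (1.39-fold, adjusted p = 0.0048), the disulfide isomerases PDIA3 (1.41-fold, adjusted p = 0.00357) and P4HB (1.27-fold, adjusted p = 0.0189), and ERP29 (1.51-fold, adjusted p = 0.0224). ERO1A, the oxidase that recharges disulfide isomerases, fell to 0.52 times (adjusted p = 0.00543). In ER-associated degradation 2 of 28 genes rose, the lectin OS9 (1.38-fold) and the segregase VCP (1.30-fold), and 3 fell, DERL1 (0.797), RNF5 (0.625) and RNF139 (0.73 times). Higher calls made up 1.41% and lower calls 1.09% of all rows.

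Of 11 other sensors and transducers 2 rose, the membrane-bound transcription factors CREB3 and CREB3L4, and of 10 genes of ER calcium and cell death the calcium sensor STIM1 rose and BFAR fell. None of the 14 PERK outputs and none of the 30 genes of translocation and export passed, at unadjusted counts of 2 and 9. The list medians were 0.08 for the members, 0.11 for the chaperones, 0.01 for the PERK outputs and -0.02 on the log2 scale for all rows. Wholly separated by letter in the 15 libraries were also HYOU1 and OS9 (higher) and DERL1, RNF5 and UBXN4 (lower).

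PDIA4 was the member that varied most closely with HSPA5. It had 194.5, 185.5, 135.4, 189 and 169 CPM in heat-clearing replicates 1, 2, 3, 7 and 9, and 154, 150.0, 173, 178 and 135.2 CPM in spleen-strengthening replicates 2, 5, 6, 7 and 8. In yin-nourishing replicates 1, 4, 5, 7 and 10 it had 164, 149, 179.7, 156 and 152 CPM, and in blood-activating replicates 1, 4, 6, 8 and 9 it had 246, 163.5, 158, 161 and 205 CPM. Its lowest heat-clearing library is also the lowest for HSPA5, while blood-activating 1, with the highest PDIA4, stood at 182.5 CPM of HSPA5.

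Across the 20 libraries, Pearson's r between HSPA5 and PDIA4 on log2 CPM was 0.62 (permutation p = 0.00328, adjusted p = 0.0236) and Spearman's rho 0.73 (permutation p = 0.00043, adjusted p = 0.00387; adjusted over the 9 relations of HSPA5). In the 15 libraries without a high RN7SK share r was 0.83 (adjusted permutation p = 0.00117), and with treatment means removed 0.58 (adjusted permutation p = 0.0343), while rho was then 0.60 and did not pass (adjusted permutation p = 0.0535). Without heat-clearing 3 and yin-nourishing 5, which lie farthest from the HSPA5 median, r was 0.56 (permutation p = 0.0153, adjusted p = 0.0726) and rho 0.69 (adjusted permutation p = 0.0201). Pearson's r thus did not pass after adjustment without these 2 libraries.

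ATF6 ran opposite to HSPA5, with r = -0.61 (permutation p = 0.00524, adjusted p = 0.0236) and rho = -0.57 (adjusted permutation p = 0.0466). Its rho did not pass with treatment means removed (-0.38, adjusted permutation p = 0.307) or under RLE scaling (-0.56, adjusted permutation p = 0.0516). Its highest level, 114.5 CPM in heat-clearing 3, fell in the library with the lowest HSPA5. This relation did not pass in the 15 libraries (r = -0.57, permutation p = 0.0275, adjusted p = 0.124) or without the 2 farthest libraries (r = -0.56, adjusted permutation p = 0.0726). The other 7 relations did not pass over the 20 libraries, and the strongest was SDF2L1 with r = 0.40 (permutation p = 0.079, adjusted p = 0.237). With the means of both treatment and title letter removed, a setting that was not planned, SDF2L1 had r = 0.66 (adjusted permutation p = 0.00436). Its rho was then 0.47 and did not pass (adjusted permutation p = 0.154). PDIA4 had r = 0.73 and ATF6 r = -0.62 in that setting (adjusted permutation p = 0.00315 and 0.0132).

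Over all genes of sufficient level, those whose order of libraries was among the most like that of HSPA5 included CCND1 (Spearman's rho 0.88), AHSA1 (0.86), FKBP4 (0.85) and PRMT7 (0.84), out of 14604 ranked over 20 libraries. These 4 do not belong to the lists of ER genes. CCND1 encodes cyclin D1, AHSA1 and FKBP4 partners of cytosolic HSP90, and PRMT7 an arginine methyltransferase. In the 15 libraries without a high RN7SK share rho was 0.96 for CCND1 and 0.73 for AHSA1. The libraries share their depth, RN7SK share and letter, so these values are a description.

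The rest of the pathway also gave no call between treatments by edgeR. In the 4-group test 0 of the 126 tested genes of the 6 other lists passed. At an unadjusted p under 0.05 stood 3 of 11 sensors and transducers, 2 of 14 PERK outputs, 11 of 33 chaperones, 8 of 28 genes of ER-associated degradation, 8 of 30 of translocation and export, and 4 of 10 of ER calcium and cell death, against 15.4% of all rows. DESeq2 called 17 genes of these lists in this test, where it called 8.4% of all rows, and limma voom 30, where it called 8.77%.

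The smallest p among them was that of PPP1R15A (GADD34), which returns the initiation factor to its active state after PERK. Its level was 46.1 ± 14.8 CPM in blood-activating, 28.45 ± 7.67 in heat-clearing, 27.5 ± 5.39 in yin-nourishing and 18.6 ± 2.89 CPM in spleen-strengthening (SD, n = 5 each; edgeR adjusted p = 0.172). Spleen-strengthening stood at 0.404 times blood-activating (95% interval 0.298 to 0.546, adjusted p = 0.06) without overlap, where 4.44% of all rows had none. Of the 14 PERK outputs 13 were lower in spleen-strengthening than in blood-activating, with a median of -0.57 on the log2 scale against -0.04 over all rows, and 6 had an unadjusted p under 0.05, where 20.5% of all rows did. Of these outputs SESN2, TNFRSF10B and BBC3 were wholly higher in the RN7SK-high libraries in both groups that hold them, 3 of 14 where 12.3% of all rows were. Without the RN7SK-high libraries 8 of the 14 were lower and 6 higher, the median was -0.13 on the log2 scale, and 1 had an unadjusted p under 0.05, where 6.57% of all rows did. PPP1R15A then stood at 0.496 times blood-activating (95% interval 0.365 to 0.674, edgeR adjusted p = 0.208), with 2 blood-activating libraries left. On all 20 libraries CEBPB, a transcription factor of stress responses, differed by -0.51 (adjusted p = 0.0933), DDIT3 (CHOP) by -0.53 (adjusted p = 0.209) and ATF4 by -0.15 on the log2 scale (adjusted p = 0.479). The 10 members had 5 higher and 5 lower in this pair, with a median of 0.03 on the log2 scale.

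Of the chaperones, CALR had 556 ± 154 CPM in blood-activating, 498 ± 164 in heat-clearing, 371 ± 71.0 in yin-nourishing and 342 ± 45.4 CPM in spleen-strengthening (SD, n = 5 each; adjusted p = 0.182). CALR was wholly higher in the RN7SK-high libraries in both groups that hold them, with 587 to 743 CPM against 288 to 478 CPM in the other 15. P4HB, also wholly higher there, gave an adjusted p of 0.19 in the 4-group test and HYOU1 one of 0.453. SEC61A1, the channel of the translocon, had 533 ± 40.5 CPM in spleen-strengthening and 459.6 ± 24.3 CPM in blood-activating (n = 5 each, adjusted p = 0.146), and SEL1L, the scaffold of the degradation ligase HRD1, differed by -0.01 on the log2 scale (adjusted p = 0.985). The leading genes of the other lists were MBTPS1 and CREB3, TMUB2 and AUP1, SEC61G and SSR4, and BAK1 and STIM1, with 4-group adjusted p-values of 0.172 to 0.197. Each of these 8 was wholly higher in the RN7SK-high libraries in both groups, apart from MBTPS1, the protease that cuts ATF6, which was wholly lower (87.9 to 98.5 CPM against 107.6 to 139 CPM). Among all rows 12.3% were wholly higher and 10% wholly lower.

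Some members share exons or sequence with other genes, which can move counts between them. EIF2AK3 (chr2:88556741-88627576, hg38, GENCODE 29) shares 781 exonic bases with the antisense AC104134.1, which had 1029 counts in all against 110399. HSP90B1 (chr12:103930107-103953645) shares 121 with the opposite C12orf73, and its pseudogene HSP90B2P had 594 counts against 959361. DNAJB9 (chr7:108569568-108574850) shares 99 exonic bases with PNPLA8 and 183 with THAP5 on the other strand, both with counts of the same order, so its level depends on a strand setting that the sources do not give. HSPA5 (chr9:125234853-125241330) shares no exonic bases with another gene, and its pseudogene HSPA5P1 had 5 counts in all.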

How the data were processed

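Total RNA of the 20 samples was freed of ribosomal RNA and sequenced with a directional kit, per the labels' protocols. The submitters' processing notes name HISAT2, StringTie and hg38, without versions. Not given in the sources used here are the annotation, the strand setting and any removal of mouse reads. The authors deposited 1 table of counts, whole numbers per gene and sample, not normalised, with 81.7 to 135 M counts per library.

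Counts were scaled by TMM and tested with edgeR 4.0.16 (robust quasi-likelihood F-test, R 4.3.3), all 20 libraries in 1 fit, after its filter with a minimum count of 10. Benjamini-Hochberg adjustment ran over all 24790 rows within a comparison, with a threshold of 0.05. The comparisons were the 4-group test and the 6 pairs. The title letter was tested beside treatment after the data were seen. CPM values are TMM-normalised, correlations use log2 CPM (prior count 2) and 100000 permutations, and the edgeR script was tested on simulated data. Reads carry no molecular identifiers.

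The members and lists were chosen with earlier results of these data known. Named by rule were all members, the 2 genes of each list with the smallest p in the 4-group test where none passed, CALR, HYOU1, SEL1L, SEC61A1, ATF4, DDIT3 and PPP1R15A, and the 5 genes most like HSPA5 by Spearman's rho, of which 1 is not reported here. The genes named for the title letter, for exon overlap and as pseudogenes were picked outside this rule with their values known. Gene positions are from GENCODE 29 on hg38, and promoter sequences from RefSeq (GRCh38.p14). Alternatives were DESeq2 1.42.0, limma 3.58.1 (voom with quality weights), RLE and upper quartile scaling, other filters, terms for the title letter, the acinar level and the replicate number, each pair alone, leaving out each library, and, chosen after seeing the data, leaving out or fitting a term for the RN7SK-high libraries (over 4% of counts).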

Additional observations from a re-analysis of the deposited data

Results flagged for a closer look

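In 5 of the 40 groups of 5 values (10 members in 4 treatments), 1 library stood apart from the other 4 by Dixon's criterion, which chance meets in about 1 of 20 groups. HSPA5 gave 3 of them. Heat-clearing 3 was low at 128 CPM, spleen-strengthening 7 was high at 226 CPM and yin-nourishing 5 was high at 237 CPM. The latter pair are the only letter C libraries of their treatments, and heat-clearing 3 is the only letter b library of its treatment that is not RN7SK-high. XBP1 was high in blood-activating 4, at 287 CPM, a letter C library. SDF2L1 was high in yin-nourishing 1, at 4.28 CPM, a letter b library.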

How the results depend on the processing

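Of 511 alternative values of the counts of passing genes or correlations, 481 were scored as unmoved and 30 as moved. On all 20 libraries every such count was 0 except that of correlations with HSPA5. For a count of 0, unmoved means that it stayed 0, and for the correlations that it stayed within 1.5 times. EIF2AK3 in spleen-strengthening minus blood-activating changed sign, to -0.0606 on the log2 scale without the RN7SK-high libraries. Members passing, 0 in each treatment comparison, were 1 by DESeq2 in the 4-group test and in spleen-strengthening minus blood-activating, 4 there by limma voom, and 3 by limma voom in yin-nourishing minus blood-activating. Leaving out single libraries kept 0 members in every comparison. The genes of the other lists, also 0, were 17 by DESeq2 and 30 by voom in the 4-group test, 1 by DESeq2 in heat-clearing against spleen-strengthening and against yin-nourishing (29 of all rows in each), 25 and 46 in spleen-strengthening minus blood-activating, and 15 and 39 in yin-nourishing minus blood-activating. Of all rows DESeq2 and voom called 8.4% and 8.77%, 13% and 19.7%, and 7.19% and 16.9% in these 3 comparisons. In spleen-strengthening minus blood-activating they were also 1 with no filter (2 of all rows) and 19 with the acinar term (1392 of all rows). Leaving out 1 library gave 0 to 7 in the 4-group test and 0 to 7 in yin-nourishing minus blood-activating (7 without blood-activating 4). In spleen-strengthening minus blood-activating it gave 0 to 26 (5 without heat-clearing 3, 26 without blood-activating 4). The shares of all rows called in these fits are not given here, so these counts are not read as a result about the lists. The cause of these changes was not tested.

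For the title letter, 0 members and 0 list genes passed on all 20 libraries; the list genes were 3 by DESeq2 (118 of all rows) and 0 to 1 with 1 library left out. Without the RN7SK-high libraries 1 member and 15 list genes passed, where 2.5% of all rows did. With a term for these libraries the counts were 1 and 5. The shares of all rows called with that term, or with 1 library left out, are not given here. Those counts are thus not read as a result about the members or lists. The 2 passing correlations with HSPA5 became 1 in the 15 libraries without a high RN7SK share and 0 without the 2 farthest libraries. With the means of treatment and title letter removed, a setting that was not planned, they became 3.

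With the replicate number as a block, 0 members passed in every comparison. The labels do not say whether the numbers pair the samples. Same-numbered libraries deviated together in 4 of 12 pairs (correlation over 0.1, range -0.173 to 0.292). Libraries with different numbers were not compared, so this check cannot decide the question. The HSPA5 letter difference was then 0.30 on the log2 scale (adjusted p = 1). SDF2L1, at 3.32 CPM, is the member with the lowest counts and the widest spread between libraries (coefficient of variation 36.4%).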

Other observations

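The 4 genes named for their likeness to HSPA5 across libraries were also compared by title letter, after their values were seen. In the 15 libraries without a high RN7SK share AHSA1, a partner of cytosolic HSP90, was 1.94-fold higher in letter C libraries (95% interval 1.68 to 2.23, edgeR adjusted p = 0.000137), the smallest p of the 28334 rows tested. FKBP4, another partner of HSP90, was 1.46-fold higher (adjusted p = 0.00344), CCND1 1.21-fold (adjusted p = 0.0259) and PRMT7 1.87-fold (adjusted p = 0.0545). Over all 20 libraries AHSA1 differed by 1.51-fold (adjusted p = 0.162) and CCND1 by 1.08-fold (adjusted p = 0.938). The 4 were picked for their likeness to HSPA5 in these libraries, so they are not independent of its letter difference.

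In the same comparison over all 20 libraries, the ER genes of the lists with the smallest p were OS9 (1.36-fold, adjusted p = 0.153), FKBP11, an ER prolyl isomerase (1.48-fold, adjusted p = 0.274), ERP29 (1.37-fold, adjusted p = 0.281) and DNAJB11, a J-domain partner of HSPA5 (1.35-fold, adjusted p = 0.385).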
